A study of Mus musculus with 4 samples.

Results

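The reactive astrocyte injury genes are 36 genes that astrocytes, the star-shaped support cells of the brain, raise after damage or that belong to the matrix they lay down around a wound. They were examined as a list of names, out of 21631 protein-coding genes, for peaks of the transcription factor SOX2. A peak belonged to a gene when its centre lay inside the gene or within 50 kb of it and no other protein-coding gene was nearer. All 36 genes were found in the RefSeq gene table, and 52 peaks belonged to them: 17 in IP library 1, 20 in IP library 2 and 15 in IP library 3.

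SOX2 was mapped by chromatin immunoprecipitation and sequencing, which recovers the DNA a protein sits on by means of an antibody and reads it, in cortex of male C57BL/6 mice aged 2 months. There were 3 immunoprecipitated (IP) libraries, made with a rabbit polyclonal antibody to SOX2, and 1 input library of chromatin without antibody, all from tissue labelled wild-type. All 4 samples, input included, also carry a label for transduction with SOX2, which was not used. The series concerns loss of SOX2 in astrocytes and recovery from brain injury, and the question here is whether injury genes carried SOX2 peaks in cortex of wild-type mice. No label names an injury or a deletion of SOX2 in these samples. Whether separate animals gave the IP libraries is not in the labels, and their spread may be only technical.

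Astrocytes answer injury by enlarging, changing their cytoskeleton and secreting protease inhibitors, complement proteins, chemokines and proteoglycans, a state called reactive gliosis. Signals through the interleukin 6 receptor family and the transcription factor STAT3 are known to drive much of it, and epidermal growth factor receptor signalling is known to take part. Chondroitin sulfate proteoglycans of the scar are known for hindering the regrowth of axons. SOX2 is a transcription factor of neural stem cells that adult astrocytes also make.

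A region here is a set of peaks chained by overlaps of at least 1 bp, and its strength is the mean over libraries of normalized tags, which the authors scaled to a library of 10000000 sequenced tags. Of the 36 genes, 6 (16.7%) had a region with peaks of all 3 IP libraries, against 22.5% of all protein-coding genes. These were the chitinase-like protein gene Chil1, the proteoglycan genes Bcan and Cspg5, the sphingosine 1-phosphate receptor gene S1pr3, the asparaginase gene Aspg and the growth factor receptor gene Egfr. Each had 1 such region. The same 6 genes were the only ones with peaks in all 3 libraries, overlapping or not (16.7%, against 24.6% of all genes). A further 3 genes (8.33%) had peaks in exactly 2 libraries, against 8.52% of all genes, and 6 (16.7%) in exactly 1 library, against 11.8%. Peaks of different libraries overlapped at none of these 9 genes. The remaining 21 genes had no peak, so that 15 (41.7%) had a peak in any library, against 44.9% of all genes. By library, 9, 11 and 10 of the 36 genes had a peak in IP libraries 1, 2 and 3, against 34.8%, 35.1% and 32.9% of all genes. The differences from the background were not tested.

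**Figure D1:**
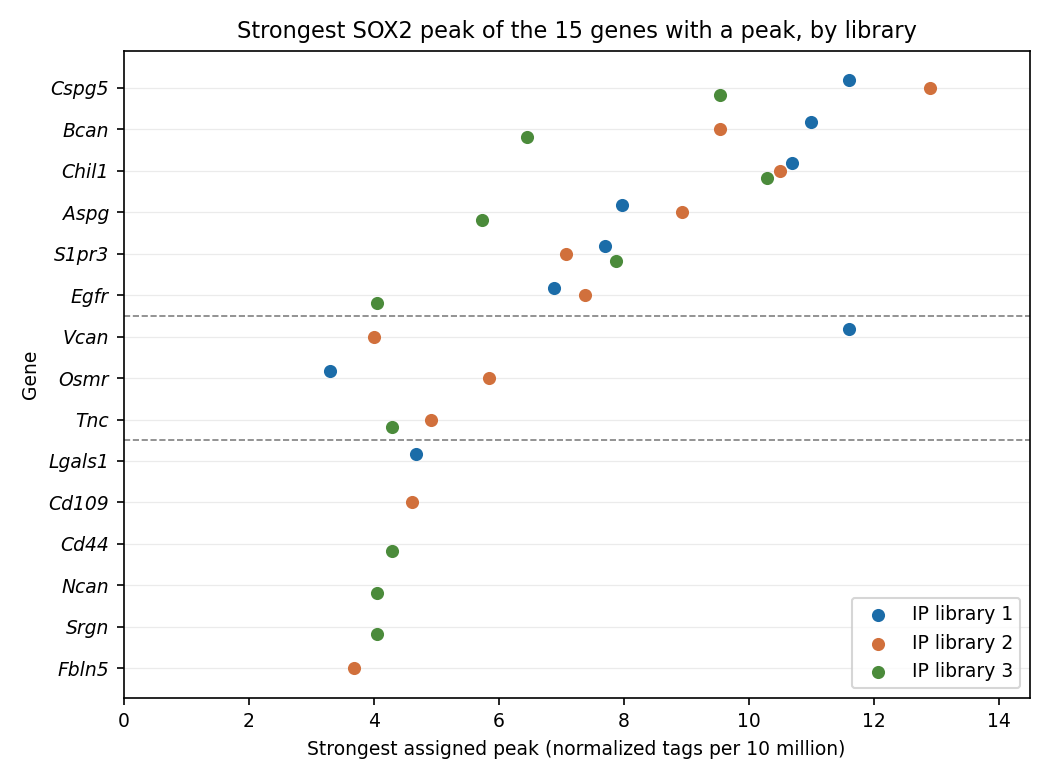
Strongest assigned peak, in normalized tags (horizontal axis), of each of the 15 injury genes with a peak, 1 point per IP library; dashed lines separate genes with peaks in 3, 2 and 1 libraries. For Cspg5 the points show the site outside the gene, where the 3 libraries did not all overlap, and Vcan is the 1 gene outside the top group with a point above 10 (11.6 in IP library 1).

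Genes with more sequence around them can collect more peaks. The surroundings of a gene were its span plus, on each side, the stretch up to midway to the next gene, at most 50 kb. No stretch was added at an end inside another gene, and overlapping spans counted in full for each gene. The surroundings had a median of 45.2 kb over the injury genes and 45.0 kb over all genes. Among genes below the median of all genes, 13.2% had a region in all 3 libraries, and 3 of 18 injury genes did. Among genes at or above it, 31.9% did, and again 3 of 18 injury genes. The 21 injury genes without a peak had a median of 35.1 kb, and the 9 with peaks but no region in all 3 libraries 118.0 kb.

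The upstream sequences of 3 of the genes show what the pull-down covered and what it did not. Each is the 250 bases before the transcription start, 5′ to 3′ on the gene's strand, from RefSeq on GRCm38.p6, the assembly of the mm10 build. Chil1 is shown because it was the only one of the 30 injury genes with a RefSeq promoter window whose window a region of all 3 libraries touched, and capitals mark the bases covered by the peaks of all 3 libraries. It lies at chr1:134181906-134182155 on the plus strand.
Chil1: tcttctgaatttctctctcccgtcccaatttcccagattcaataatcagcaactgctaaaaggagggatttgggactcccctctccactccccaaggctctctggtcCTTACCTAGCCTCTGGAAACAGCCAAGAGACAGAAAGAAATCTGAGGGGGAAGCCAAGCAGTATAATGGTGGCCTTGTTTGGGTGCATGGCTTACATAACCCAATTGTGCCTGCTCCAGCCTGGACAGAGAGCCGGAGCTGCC

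Timp1, an inhibitor of metalloproteinases, and Ptx3, a secreted pentraxin of innate immunity, are shown as examples of a match to a SOX motif before the start, in capitals, at a gene without a peak in any library. Cp and Sphk1 also had such a match and no peak. Over all protein-coding genes, 5310 of 21045 promoter windows had a match. Of these, 439 were among the 1357 windows that held the centre of a region of all 3 libraries. Timp1 and Ptx3 were chosen after the matches were seen, as those of the 4 genes with a single RefSeq window. They lie at chrX:20869916-20870165 and chr3:66219637-66219886, both on the plus strand.
Timp1: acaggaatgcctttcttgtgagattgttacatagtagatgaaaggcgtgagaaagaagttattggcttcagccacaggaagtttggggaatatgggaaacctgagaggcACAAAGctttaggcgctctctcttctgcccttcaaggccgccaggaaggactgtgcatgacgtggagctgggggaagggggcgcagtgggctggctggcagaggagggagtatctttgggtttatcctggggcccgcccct
Ptx3: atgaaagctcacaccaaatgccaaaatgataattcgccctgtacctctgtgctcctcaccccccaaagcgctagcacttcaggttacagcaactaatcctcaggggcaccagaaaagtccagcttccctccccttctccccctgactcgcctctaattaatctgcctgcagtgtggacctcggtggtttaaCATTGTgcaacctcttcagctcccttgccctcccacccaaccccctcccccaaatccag

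The SOX motif was searched as ACAAAG or ACAATG on both strands in windows from 250 bases before to 50 bases after each start. RefSeq windows were matched for 30 of the 36 genes, 40 windows in all, and those of 1 gene can share bases. The motif lay in 5 of the 40 windows (12.5%), at the genes Cp, Ptx3, Sphk1 and Timp1, against 25.2% of 21045 windows of protein-coding genes. Of the 1357 windows that held the centre of a region of all 3 libraries, 32.4% contained it. The Chil1 window contained no exact match, which says only that these letters are not in it. A region of all 3 libraries touched 1 of the 40 windows, against 7.56% of all windows.

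Motifs of factors known from inflammation and injury were counted in the same windows, as a description with no test. The AP-1 motif (TGANTCA) lay in 17.5% of the injury gene windows, at 6 genes, and in 7.04% of all windows. The STAT motif (TTCNNNGAA) lay in 15.0%, at 5 genes, and 7.76%. At Sphk1 the same AP-1 match and the same STAT match were each counted in more than 1 window. The C/EBP motif (TTGCNNAA) lay in 17.5% and 10.3%, and the NFI motif (TTGGCA) in 20.0% and 13.1%. The interferon response motif lay in 12.5% and 3.38%, at Cxcl10, Fbln5, Gbp2, Srgn and Tgm1, and the NF-kB motif in 30.0% and 23.3%. At Ptx3 the SOX match overlapped a C/EBP match, and at Emp1 an AP-1 match overlapped a STAT match.

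Chil1, which encodes a secreted chitinase-like glycoprotein made by astrocytes, had the strongest of the 6 regions. Its normalized tags were 10.7 in IP library 1, 10.5 in IP library 2 and 10.3 in IP library 3 (mean 10.5 ± 0.20, SD, n = 3). These values rest on 39, 34 and 43 tags. The region ran over chr1:134182006-134182166, and its centre lay 0.07 kb before the transcription start. By the authors' values the peaks stood 35.4-fold, 34.5-fold and 33.8-fold above the input, which had 1 tag in each comparison. Among the 9333 regions of all 3 libraries, 74.0% were weaker. The RefSeq table also places the long non-coding RNA gene Gm46158 over the region.

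The pan-reactive genes, which rise after several kinds of injury, numbered 11. Of these, 2 had a region in all 3 libraries, against 22.5% of all genes, and the difference was not tested. S1pr3 encodes a receptor for sphingosine 1-phosphate, a lipid signal that Sphk1 helps to make. Its region lay inside the gene at chr13:51418598-51418794, 10.1 kb after the start, with 7.71, 7.08 and 7.88 normalized tags (mean 7.56 ± 0.421, SD, n = 3). The non-coding gene Gm32834 also covers it. Aspg, which encodes an asparaginase, had its region 5.37 kb before the start at chr12:112101218-112101417. It held 7.98, 8.93 and 5.73 normalized tags (mean 7.55 ± 1.64, SD, n = 3), with IP library 3 lowest. Over all peaks, too, IP library 3 had the lowest median, 5.25 normalized tags against 6.06 and 6.16 in IP libraries 1 and 2. At Aspg, IP library 2 had a second peak, of 6.16 normalized tags, 6.42 kb before the start.

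Osmr and Cd44 were the other pan-reactive genes with peaks. Osmr, the receptor for oncostatin M, had a peak of 3.30 normalized tags in IP library 1 and peaks of 4.62, 5.85 and 5.23 in IP library 2, at different places, the farthest 38.8 kb from the gene. That was the most distant peak given to any injury gene. Cd44, the hyaluronan receptor, had 3 peaks in IP library 3 only, of 4.30, 3.82 and 3.82 normalized tags. Its nearest region of all 3 libraries lay 65.3 kb away and belonged to Slc1a2, the glutamate transporter gene of astrocytes.

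The other 7 pan-reactive genes had no peak: Lcn2, which encodes an iron-scavenging lipocalin, the protease inhibitor genes Serpina3n and Timp1, the ceruloplasmin gene Cp, the metalloreductase gene Steap4, the heat shock protein gene Hspb1 and the chemokine gene Cxcl10. For some of them a region lay close by but nearer to another gene. Lcn2 had surroundings of 8.54 kb, and a region of 7.24 ± 1.92 normalized tags (SD, n = 3) stood 8.15 kb away, nearest to Ptges2. A region of 16 ± 4.82 normalized tags stood 45.4 kb from Hspb1, nearest to Ywhag. Timp1 lies within the span of Syn1, and its closest region of all 3 libraries was 1823.6 kb away. The closest to Steap4 was 1061.0 kb away.

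Among the 7 genes tied to neuroinflammation, none had a region in all 3 libraries, against 22.5% of all genes. The 7 genes are too few to read a difference. Fbln5, an elastic fibre protein gene, had a peak of 3.69 normalized tags in IP library 2 only. Srgn, which encodes the core protein serglycin, had a peak of 4.06 in IP library 3 only. The complement gene C3, the complement inhibitor gene Serping1, the guanylate-binding protein gene Gbp2, the immunoproteasome gene Psmb8 and the adhesion gene Amigo2 had none. Regions nearest to other genes stood 19.7 kb from C3 (7.95 ± 1.35 normalized tags, SD, n = 3) and 37.9 kb from Serping1 (8.03 ± 1.22).

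Of the 8 genes tied to ischaemia, none had a region in all 3 libraries either, against 22.5% of all genes. The 8 genes are again too few to read a difference. Cd109, which encodes a cell surface protein that binds transforming growth factor beta, had a peak of 4.62 normalized tags in IP library 2, 0.785 kb outside the gene. The other 7 had no peak: Ptx3, the epithelial membrane protein gene Emp1, the sphingosine kinase gene Sphk1, the transglutaminase gene Tgm1, the cyclooxygenase gene Ptgs2, the annexin partner gene S100a10 and the cytokine gene Clcf1. Ptgs2 had surroundings of 108.2 kb, more than most, and its closest region of all 3 libraries was 697.5 kb away. Around Clcf1 the closest lay at 50.8 kb, just beyond the limit, and was in any case nearer to Rps6kb2.

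All 4 proteoglycan genes had a peak in some library, against 44.9% of all genes, and 2 had a region in all 3 libraries, against 22.5%. The other 2, Vcan and Ncan, had only regions of 1 library, and the surroundings of Vcan measured 159.5 kb. The 4 genes are too few to read a difference from all genes, and none was tested. Bcan encodes brevican, a brain proteoglycan that binds hyaluronan. Its region lay inside the gene at chr3:87998849-87999008, 1.43 kb after the start, with 11, 9.54 and 6.45 normalized tags (mean 9.0 ± 2.32, SD, n = 3) and IP library 3 lowest. Input tags were at the floor of 0.5 there, which gives the folds of 72.5, 62.9 and 42.5. A second region, of IP libraries 1 and 2 only, lay over the Bcan start, 0.0495 kb after it, with 5.78 and 8.62 normalized tags. A peak of 4.13 normalized tags in IP library 1 alone lay 9.21 kb after the start.

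Cspg5 encodes neuroglycan C, a membrane proteoglycan, and had 10 peaks, the most of the 36 genes. Its region of all 3 libraries, inside the gene at chr9:110250212-110250407, held 7.43, 7.69 and 7.40 normalized tags (mean 7.51 ± 0.159, SD, n = 3). The libraries nearly coincided, but the enrichment was low: 4.08-fold, 4.22-fold and 4.06-fold over about 6 input tags (5.9 to 6.0). That mean of 4.12 was the lowest of all 9333 regions of 3 libraries, just above the required 4-fold. Other sites of the gene had less input and peaks that did not line up in all 3 libraries. At 14.8 kb outside the gene, IP libraries 2 and 3 shared a region of 12.9 and 9.55 normalized tags, with 85.2-fold and 62.9-fold enrichment. IP library 1 had a peak of 11.6 normalized tags that began 139 bp beyond it. Joining peaks up to 500 bp apart, which was tried only once the peaks had been seen, made this the strongest Cspg5 region (11.3 normalized tags).

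Vcan and Ncan encode versican and neurocan, relatives of brevican. Vcan had peaks of 4.95, 4.13 and 11.6 normalized tags in IP library 1 and of 4.00 in IP library 2. The strong peak lay 35.6 kb from the gene and held 8 input tags, a 4.76-fold enrichment. The IP library 2 peak stood 654 bp from it. Ncan had a peak of 4.06 normalized tags in IP library 3 only, and a region of 12.2 ± 3.29 (SD, n = 3) stood 8.57 kb away, nearest to Rfxank. Genes of this family often lie beside a gene for a hyaluronan link protein. The link protein gene Hapln1, the neighbour of Vcan, held a region of 19.3, 16.9 and 17.4 normalized tags (mean 17.9 ± 1.27, SD, n = 3) that was 47.8 kb from Vcan. Hapln2 and Hapln4 had no region in all 3 libraries.

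Among other matrix proteins and lectins, Chil1 alone of 4 had a region in all 3 libraries, against 22.5% of all genes. Tnc, which encodes the matrix glycoprotein tenascin C, had a peak of 4.92 normalized tags in IP library 2 inside the gene and 1 of 4.30 in IP library 3 at 28 kb outside it. Lgals1, a galectin gene, had a peak of 4.68 in IP library 1, 0.563 kb outside the gene. A region of all 3 libraries with 9.28 ± 2.10 normalized tags (SD, n = 3) stood 4.56 kb from Lgals1, nearest to Pdxp. The related gene Lgals3 had no peak.

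Egfr encodes the epidermal growth factor receptor and, with a span of 161.7 kb, is the longest of the 36 genes. Its region lay deep inside the gene, 96.5 kb after the start, at chr11:16848572-16848873. It held 6.88, 7.39 and 4.06 normalized tags (mean 6.11 ± 1.79, SD, n = 3), with IP library 3 lowest at 17 tags. The peaks of the 3 libraries had only 10 bp in common, and requiring each overlap to span 0.5 of each peak left no Egfr region of all 3 libraries. Regions of IP libraries 1 and 2 lay 46.2 kb and 80.1 kb after the start, with means of 6.54 and 5.53 normalized tags. Il6st, the shared signalling receptor of the interleukin 6 family, had no peak, and its closest region of all 3 libraries was 109.7 kb away.

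**Figure D2:**
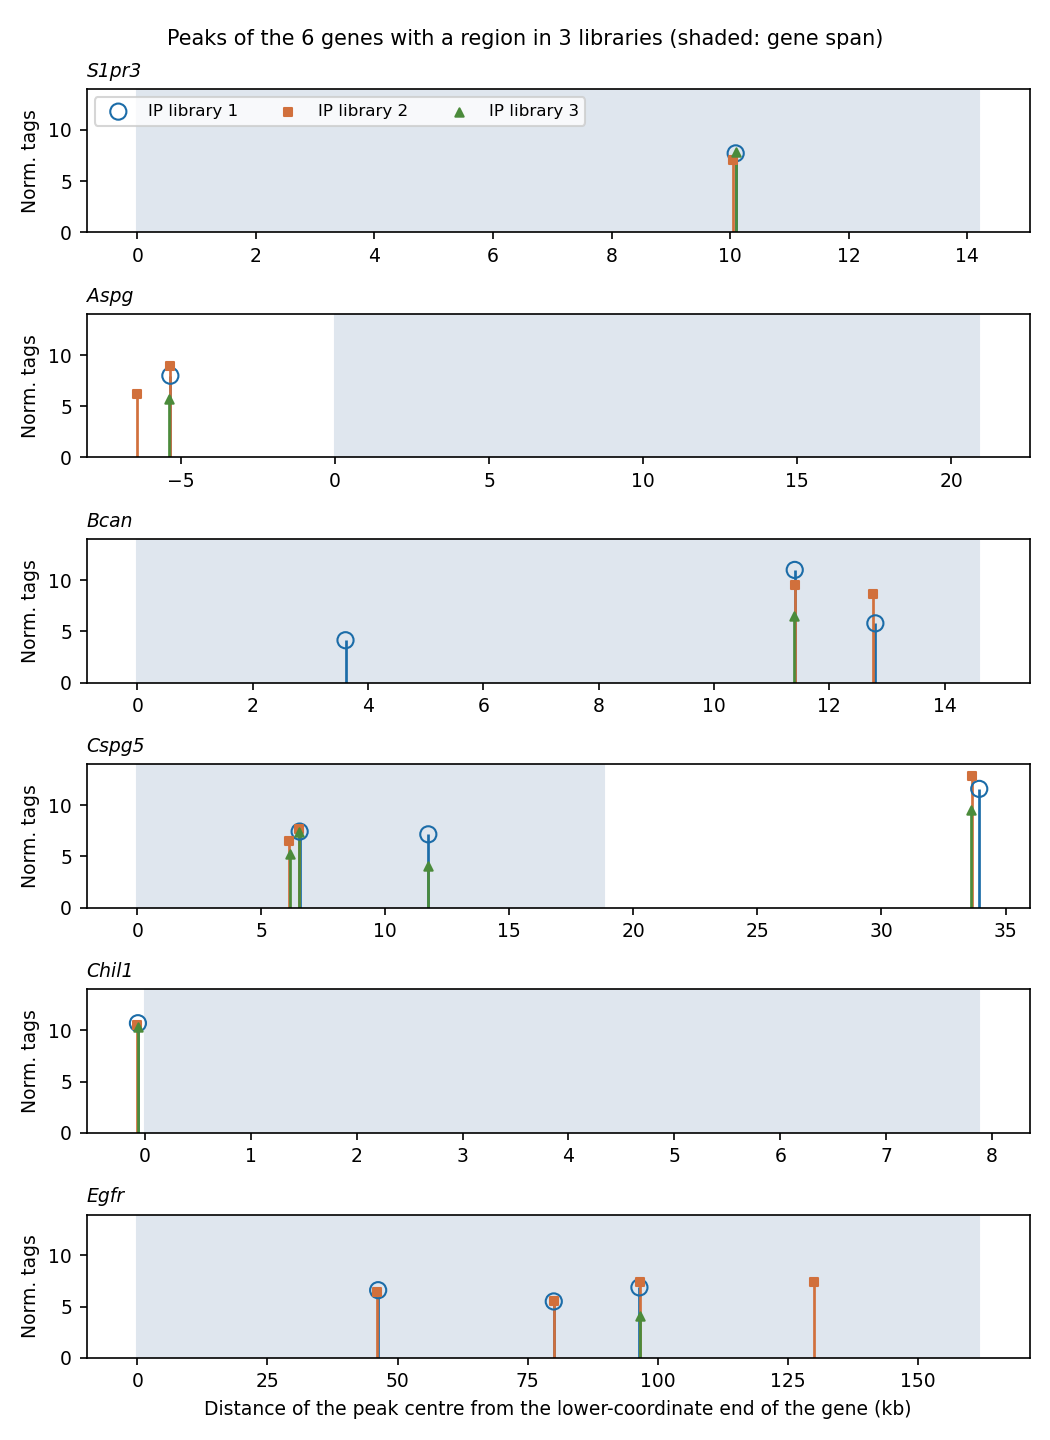
Peaks of the 6 genes with a region in all 3 libraries: distance of the peak centre from the lower-coordinate end of the gene in kb (horizontal) against normalized tags (vertical), with the gene span shaded. At Chil1 the 3 libraries stack at the gene start, while Cspg5 and Egfr show several sites, most of them in 2 libraries or 1.

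Ordered by strength, Chil1 (10.5) came first, then Bcan (9.0), S1pr3 (7.56), Aspg (7.55), Cspg5 (7.51) and Egfr (6.11), in normalized tags. The lowest value of Chil1, 10.3, was above every value of S1pr3, Aspg, Cspg5 and Egfr, whereas Bcan reached 11 in IP library 1 and overlapped with it. The ranges of S1pr3, Aspg and Cspg5 overlapped with each other, and that of Egfr (4.06 to 7.39) overlapped with those of S1pr3 and Aspg. The median over the 6 regions was 7.55 normalized tags, and over all 9333 regions of 3 libraries 7.63. Enrichment over the input had a median of 8.40-fold over the 6 and 15.3-fold over all. With at least 8-fold enrichment required of each peak, 2 of the 6 genes, Bcan and Chil1, still had a region (5.56% of the 36, against 15.0% of all genes). In 4 of 6 the region lay inside the gene (66.7%), against 64.0% of all regions given to a gene. The cortex holds several cell types, and a weak region cannot be told apart as weak binding in many cells or strong binding in few.

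**Figure D3:**
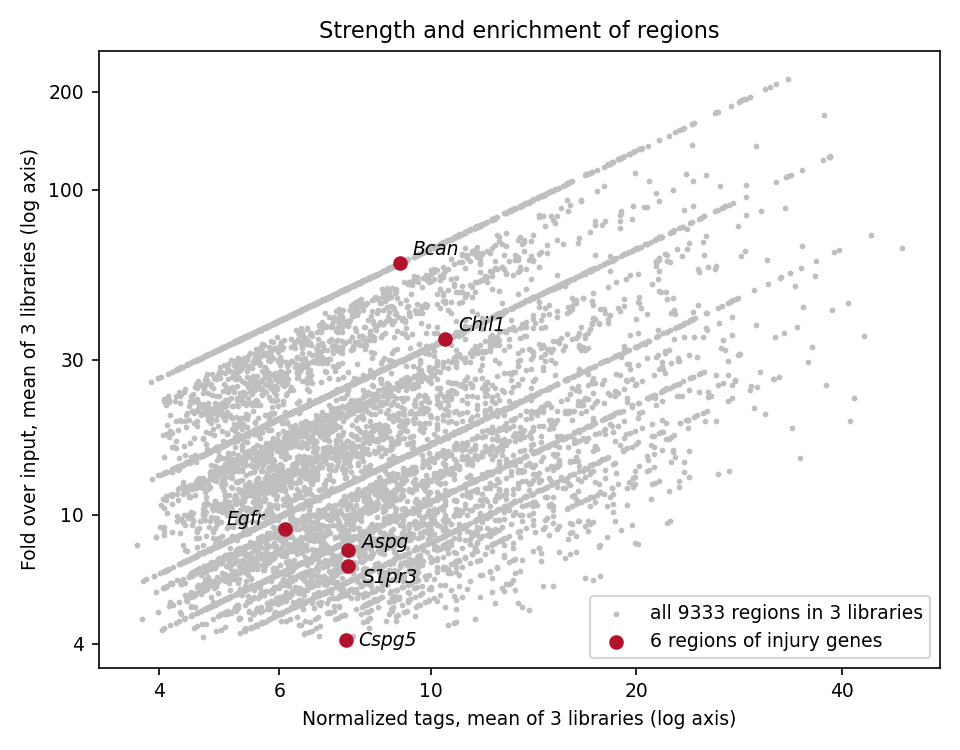
Normalized tags (horizontal, log axis) and fold over the input (vertical, log axis), each the mean of 3 libraries, for all 9333 regions of 3 libraries (grey) and the 6 of injury genes (red). Grey diagonals are regions with equal input tags; Bcan lies on the top one, where the input is at its floor of 0.5 tags, and Cspg5 at the lower edge.

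Peaks found in a single library were mostly near the detection limit. Of the 22 regions of 1 library at injury genes, 18 (81.8%) had a peak score within 5 tags of the lowest score their library allowed (14, 13 and 16 in IP libraries 1, 2 and 3). Over all 12251 such regions the share was 85.1%. The 4 exceptions were the Vcan and Cspg5 peaks of 11.6 normalized tags, the Egfr peak of 7.39 and the Aspg peak of 6.16. The median strength was 4.46 normalized tags over the 22 and 4.62 over all.

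The count of genes depended on the nearest-gene rule. Within 50 kb of a region of all 3 libraries, whichever gene was nearest, lay 16 of the 36 genes (44.4%), against 46.6% of all genes. The 10 added in this way were C3, Emp1, Hspb1, Lcn2, Lgals1, Ncan, Ptx3, Serping1, Tgm1 and Vcan. Cspg5 also stood 37.5 kb from a region of 26.1, 20.0 and 18.6 normalized tags that belonged to Smarcc1. Egfr stood 37.4 kb from one of 9.65 ± 1.32 (SD, n = 3) that belonged to Fbxo48. The gene a region acts on cannot be read from distance.

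Other genes of the injury response were counted from lists that share no gene with the 36. Of 12 further genes of the reactive sets, 2 had a region in all 3 libraries, Gfap (7.73 ± 0.890) and Fkbp5 (5.55 ± 0.466 normalized tags, SD, n = 3) (16.7%). Of 26 genes of gliosis signalling and transcription, 9 did (34.6%), led by Socs3 (23.3 ± 3.50), an inhibitor of STAT signalling, and the endothelin receptor gene Ednrb (20.1 ± 4.27). Of 9 partners of the proteoglycans 5 did, led by Hapln1 and by Tnr, the tenascin R gene (17.9 ± 3.52). Of 12 ligands of the interleukin 6 and epidermal growth factor families 4 did, led by Lif (12.3 ± 2.14), which also stands in the signalling list, and Tgfa (7.41 ± 1.08). The regions with these values lay inside the gene at Fkbp5, Hapln1, Tnr and Tgfa. At Gfap, Lif, Socs3 and Ednrb they lay 1.38 kb, 19.2 kb, 26.2 kb and 36.5 kb outside it.

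Markers of cell types were counted in the same way. All 12 astrocyte markers had a region in all 3 libraries, led by the potassium channel gene Kcnj10 (32.0 ± 7.56) and Mlc1 (27.0 ± 5.25 normalized tags, SD, n = 3). Of 12 microglia markers 1 did, P2ry12 (5.21 ± 0.827). Of 12 endothelial and mural markers 3 did, led by Pdgfrb (6.61 ± 1.65) and Pecam1 (5.78 ± 0.733). Of 10 markers of perivascular fibroblasts 2 did, Col1a1 (6.54 ± 0.746) and Col1a2 (5.24 ± 1.42), and of 12 neuron markers 4, led by Map2 (10.7 ± 1.42) and Rbfox3 (7.88 ± 1.05). Of the markers named here, Col1a1 and Col1a2 had the region 22.6 kb and 4.36 kb outside the gene, and the others inside it. These lists and those of the injury response were chosen with earlier results of these data known. Differences between the lists, and from the 22.5% of all genes, were not tested.

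**Figure D4:**
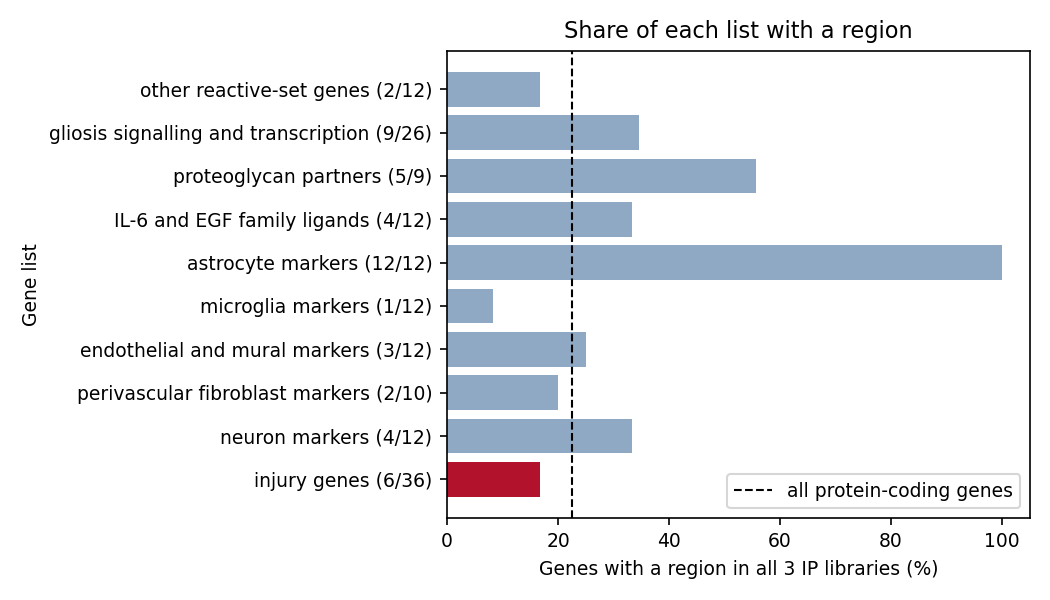
Share of each gene list with a region in all 3 IP libraries (bars, percent), with the number of genes in brackets; the dashed line is the share of all protein-coding genes, 22.5%. The injury genes stand at 16.7% (6 of 36) and the astrocyte markers at 100.0%. The lists were chosen with earlier results of these data known, and no difference was tested.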

How the data were processed

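Peak tables of 3 IP libraries of mouse cortex were used. The 1 input library enters through columns of those tables. Per the submitters' processing notes, Bowtie 1.0.0, HOMER 4.7 and mm10 were used. Per the file headers, HOMER findPeaks called peaks in each library (at least 4-fold over the input and over the local 10 kb, Poisson p at most 0.0001, false discovery rate 0.001). Per the file headers, the signal of a peak is its normalized tag value, and its score is the value held against HOMER's tag threshold, with at most 1 tag per bp considered (2 in IP library 3). The deposited ratio called fold divides IP by input tags, with 0.5 tags as the lowest input. The fraction that HOMER calls the focus ratio was deposited too but is not discussed.

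Libraries held 32492927 to 41875666 tags. Tag numbers were computed from normalized tags and the library total, and cover counting error only.

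Peaks were chained by overlaps of at least 1 bp and given to the nearest protein-coding span on the autosomes and X in RefSeq's GRCm38.p6 table; where spans tied, the gene with the closer end took the peak. Exons were not used here. Merging and assignment were tested on simulated data. Genes of the list are named by library count, with values for all that had peaks, and the 2 strongest of each other list. The genes and lists were chosen with earlier results of these data known. With 1 condition and no list test allowed, no p-value is given. Python 3.11.15, numpy 2.4.6, pandas 2.3.3 and matplotlib 3.10.9 were used.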

Additional observations from a re-analysis of the deposited data

How the results depend on the processing

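Of 13 alternatives, 2 were chosen after the data were seen (peaks up to 500 bp apart joined, and regions of at least 2 libraries). Without IP replicate 1, 2 or 3, a region needed peaks of only the 2 libraries left, a looser rule that the 6 genes could hardly fail. The 6 genes, and no others, had a region then, and their regions numbered 7 to 9 instead of 6. The share of all genes rose from 22.5% to 25.0%, 25.1% and 26.4%. The overlap of 0.5 of both lengths and the stronger 0.5 of peaks each lost Egfr, a 5 kb limit lost Aspg, and a 100 kb limit added Cp. In that order, the share of all genes was 20.7%, 15.2%, 19.5% and 23.5%. The nearest gene of any type left 4 genes (11.1% of the 36, against 19.7% of all genes), with Chil1 and S1pr3 lost to non-coding genes.

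Giving regions to every protein-coding gene within 50 kb raised the genes with a region in all 3 libraries to 16, their regions to 24, the genes with any peak to 30 and the share of all genes to 46.6%. With at least 8-fold enrichment, 2 genes and 2 regions were left, the median strength was 9.75 normalized tags and the share of all genes 15.0%. With the stronger 0.5 of peaks, 7 genes had any peak. The counts of 30 and 7 genes with any peak have no matching count over all genes. With regions of at least 2 libraries, the 6 genes had 12 regions. Strength of single genes could be compared only where the gene kept a region. Most settings left the same region and the same peaks, so most values had little or no room to move. Of 69 such values, 64 moved by less than 1 SD between libraries, which says little about stability. The 5 others were Cspg5 without IP replicate 1 and in regions of at least 2 libraries (11.2 normalized tags each), with joined peaks (11.3) and with every gene within 50 kb (21.6), and Egfr in the last of these (9.65). No paired analysis was possible because the single input has no number to pair. Of the 22 regions of 1 library, 18 lay within 5 of the lowest score allowed. Whether depth sets which of them were found was not tested. The deepest library, IP library 3 with 41875666 tags, had the fewest peaks (15891). It also had a lowest allowed score of 16, against 14 and 13, and a cap of 2 tags per bp, against 1. Depth cannot be told apart from these settings.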
